A study of Mus musculus with 9 samples.

Results

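The genes described here encode the proteins of the mitochondrial ribosome. They are the rows of the deposited count tables whose gene identifier maps to a protein-coding mouse gene named Mrpl or Mrps with a number and an optional letter, 78 of 56262 rows. The libraries are bulk RNA-seq of long-term hematopoietic stem cells (LT-HSCs) sorted from the marrow of wild-type C57BL/6 mice, in 3 groups of 3 libraries. Control mice were untreated. Both other groups received 5-fluorouracil (5-FU, 250 mg/kg), a pyrimidine analogue that kills dividing cells, followed by saline (PBS in the treatment label; 5-FU+Saline) or by FMT at 5 mg/kg into a vein after 1, 4 and 7 days (5-FU+FMT), and were sacrificed at day 8. The labels give the sort as Lin-Sca1+c-Kit+CD150+ and "C48-", and the sources used here do not spell out FMT, the age or the sex of the mice, or whether animals were pooled.

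Mitochondria carry their own ribosome, which translates the few messages of mitochondrial DNA, all of them for subunits of the respiratory chain and ATP synthase in mammals. Its rRNAs come from mitochondrial DNA, but every one of its proteins is encoded in the nucleus, made in the cytosol and imported. The large subunit forms peptide bonds and the small subunit reads the message. Many of the proteins descend from bacterial ribosomal proteins, while others were added in the mitochondrial lineage. LT-HSCs are mostly quiescent and are known for keeping protein synthesis and respiration low, and 5-FU kills cycling progenitors, after which the stem cells enter division.

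The tables held between 11098031 and 19270976 assigned read pairs per library. The 10 genes of the LT-HSC and sort-gate list summed to 1826 to 1845 CPM (counts scaled to library size with TMM factors) in Control, 1256 to 1270 after 5-FU+Saline and 1487 to 1541 after 5-FU+FMT, with 5 higher and 4 lower after 5-FU+Saline than in Control. Kit stood at a mean of 754 CPM in Control, 410 after 5-FU+Saline and 537 after 5-FU+FMT. Slamf1, which encodes CD150, was read at 8.35, 34.5 and 24.4 CPM in that order. Cd48, whose product LT-HSCs are known to lack, was read in every group, at 30.7, 53.7 and 46.7 CPM. Marker lists of other cell types and states moved strongly with the groups. The summed level of 10 proliferation genes was 1846 to 1884 CPM in Control, 4035 to 4088 after 5-FU+Saline and 3107 to 3204 after 5-FU+FMT, and all 10 differed in each of the 3 comparisons. The 10 B-lineage markers summed to 61.6 to 63.5, 1010 to 1028 and 470 to 518 CPM, and the 10 stromal markers to 5.07 to 8.05, 256 to 266 and 57.0 to 62.1 CPM. The 10 erythroid markers summed to 502 to 509, 47.6 to 51.0 and 225 to 235 CPM, and 9 of them were lower in 5-FU+Saline than in Control. The 10 granule and neutrophil genes summed to 2275 to 2314, 157 to 173 and 870 to 990 CPM, with 4 higher and 5 lower in 5-FU+Saline than in Control. The 8 megakaryocyte markers stood at 511 to 522, 403 to 408 and 415 to 423 CPM, with Gp1bb at 0 in every library. The 10 immediate early genes, which respond within minutes to stress and handling, summed to 24372 to 24502, 3563 to 3593 and 10392 to 11369 CPM. In bulk RNA, fewer cells of a type and less RNA per cell cannot be told apart, and the part of these cell types and states in the results on mitochondrial ribosomal genes was not tested.

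The roles of the 78 genes split them into 51 of the large subunit, 26 of the small subunit and Mrps36. Names do not always tell the subunit: Mrps18a and Mrps30 encode large-subunit proteins, and Mrps36 encodes a component of the 2-oxoglutarate dehydrogenase complex of the citric acid cycle and is set apart here. The genes lie on 17 chromosomes, none of them on X or Y, and chromosome 11 holds the most, with 11. Of the 78, 77 passed the filter on low counts, and a passing gene had between 79 and 1957 read pairs in each library. Mrpl53, a large-subunit gene on chromosome 6 (83109040 to 83109939, GRCm38), was listed at 0 in all 9 libraries. Other genes cover 88.0% of its exon bases, Gm42688 and Ccdc142os, and the counting assigned no read that overlaps more than 1 gene, so its level is not known from these tables.

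RefSeq promoter windows, from 250 bases before to 50 after each start (build GRCm38.p6), were found for 69 of the 78 genes, as 75 windows. 4 short sequences known to bind factors that act on nuclear genes for mitochondrial proteins were looked for on both strands, and no 2 of the sequences overlapped in any of the 75 windows. The ETS core CCGGAAG, read by GABP (also called NRF2) and its relatives, was in 26 windows, 34.7%, against 16.4% of the windows of other protein-coding genes tested and 8.86% of all windows. The NRF1 core GCGCANGCG was in 16 windows, 21.3%, against 12.4% and 6.25%. The YY1 core AAGATGGCG was in 8 windows, 10.7%, against 2.79% and 1.40%, and the E-box CACGTG in 7 windows, 9.33%, against 9.63% and 7.15%. The median GC content was 58.7% in the 75 windows and 60.3% in those of other protein-coding genes tested. Both the NRF1 and the ETS core stood in 6 windows, those of Mrps26, Mrps21, Mrpl17, Mrpl22, Mrpl57 and Mrps18b. Upstream stretches of 4 genes are printed. They belong to the genes with the largest called fold differences in each comparison below among those whose NRF1 or ETS core lies before the start and outside annotated exons. Each reads 5′ to 3′ on the strand of its gene, and the capitals mark the ETS core, or for Mrpl12 the NRF1 core, where CTTCCGG and CGCNTGCGC are the same cores read on the other strand.
Mrps22 (chr9:98601680-98601730, minus strand): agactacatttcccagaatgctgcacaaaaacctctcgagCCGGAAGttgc
Mrpl12 (chr11:120484517-120484605, plus strand): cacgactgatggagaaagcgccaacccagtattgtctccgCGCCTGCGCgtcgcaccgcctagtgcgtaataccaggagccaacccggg
Mrps27 (chr13:99344706-99344784, plus strand): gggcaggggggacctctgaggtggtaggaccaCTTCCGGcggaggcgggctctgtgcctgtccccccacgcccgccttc
Mrps18c (chr5:100798599-100798626, plus strand): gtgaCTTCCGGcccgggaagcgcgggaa
Counted from the RefSeq start that each window is built on, which can differ from the outermost start in the count tables, the core begins 11 bases before that of Mrps22, 80 before that of Mrpl12, 48 before that of Mrps27 and 156 before that of Mrps18c. A match says only that these letters are in the window.

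Per kilobase of annotated exon, the 77 genes spanned from 2.82 to 57.8 CPM per kb in Control, with a median of 11.3. Mrpl34, the counterpart of bacterial L34, stood highest at 57.8 CPM per kb, followed by Mrpl12, the stalk protein that recruits translation factors to the large subunit, at 39.0 and Mrpl52, a large-subunit protein with no bacterial counterpart, at 38.0. Mrpl12 and Mrpl52 differed by less than the spread of Mrpl52 over its libraries. Lowest were Mrpl47, the counterpart of bacterial L29, at 2.82, Mrps35, a small-subunit protein of the mitochondrial lineage, at 3.31, and Mrps22, another such protein, at 3.52 CPM per kb. Annotated exon length joins all transcripts of a gene and so sets these values in part. The median over the 77 genes was 15.8 CPM per kb in 5-FU+Saline and 13.2 in 5-FU+FMT.

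In LT-HSCs of 5-FU+Saline mice, 72 of the 77 genes stood above Control and none below it (edgeR quasi-likelihood test, Benjamini-Hochberg adjusted p below 0.05 over 16595 genes). This is 93.5% of the genes, where 32.8% of all genes tested were higher and 32.7% lower. Of the protein-coding genes that reached 10 CPM in a group, which are closer in level, 43.0% were higher. The median log2 fold change was 0.54, against -0.02 over all genes tested, and single genes ran from -0.02 to 0.92. Of the 72, 61 rose at least 1.25-fold, 32 at least 1.5-fold and 0 at least 2-fold. In 73 genes every 5-FU+Saline library lay above every Control library, where 33.7% of all genes tested did. No gene was lower at an unadjusted p below 0.05 either, and DESeq2 and limma-voom each called 72 higher and 0 lower.

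**Figure D1:**
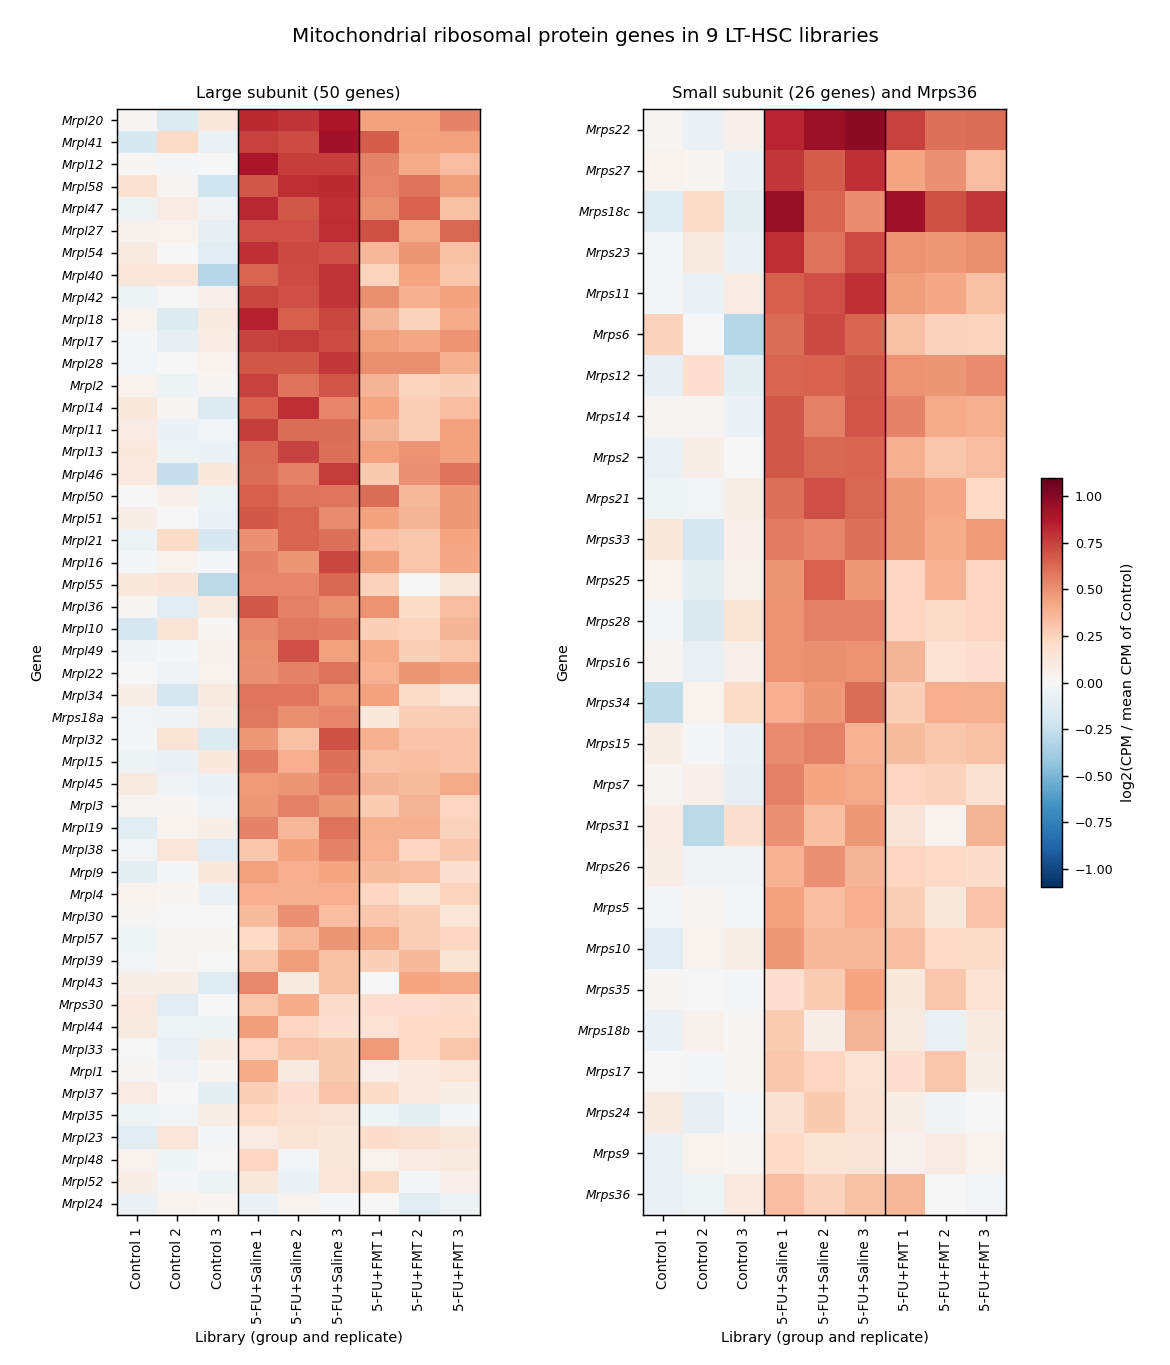
Level of 77 mitochondrial ribosomal protein genes in 9 libraries, as the log2 ratio of CPM to the gene's mean in Control, with rows ordered by the difference between 5-FU+Saline and Control and Mrps36 as the last row on the right. The 5-FU+Saline columns are red for nearly all genes, the 5-FU+FMT columns are paler for most of them, and Mrpl24 and Mrpl52 stay near white throughout.

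Mrps22, whose human counterpart is mutated in a mitochondrial disease of infancy, had the largest fold. Its Control libraries held 14.2, 13.4 and 14.6 CPM, those of 5-FU+Saline 25.1, 26.9 and 27.8, and those of 5-FU+FMT 23.6, 21.3 and 21.4. The 3 groups did not overlap, and both 5-FU groups lay well above Control. Mrps22 was named by a rule that asks for separation from Control, so that separation is no added support. Its fold in 5-FU+Saline over Control was 1.89 (log2 0.92 ± 0.10 SE, adjusted p = 7.38e-14). Among the other small-subunit genes, Mrps27, a pentatricopeptide repeat protein, rose 1.69-fold, from 19.2 ± 0.715 to 32.3 ± 1.61 CPM (SD, n = 3 libraries each; edgeR adjusted p = 2.24e-12). Mrps23 rose 1.65-fold, from 31.8 ± 2.02 to 52.1 ± 3.82 CPM. Mrps12, which helps form the decoding centre, rose 1.59-fold, from 21.5 ± 2.52 to 33.9 ± 0.557 CPM. Of the exon bases of Mrps27, 24.2% are shared with other genes.

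All 26 small-subunit genes were higher in 5-FU+Saline, with a median log2 fold change of 0.51. The 15 with a bacterial counterpart had a median of 0.49 and the 11 of the mitochondrial lineage 0.52. The smallest folds among them were those of Mrps9, named here after its value was seen, at log2 0.17, and Mrps24, the counterpart of bacterial S3 at the entry of the message channel. Mrps24 rose by log2 0.21, from 32.6 ± 2.11 to 37.7 ± 1.84 CPM (SD, n = 3; edgeR adjusted p = 0.0118). The Mrps24 call did not hold without Control replicate 2 (adjusted p = 0.0581), without 5-FU+Saline replicate 2 (0.0673) or under upper-quartile scaling (0.119). That of Mrps9 did not hold without Control replicate 1 (0.0565) or under upper-quartile scaling (0.149). Mrps35 rose 1.24-fold, from 28.6 ± 0.269 to 35.2 ± 3.07 CPM. Mrps6, the counterpart of bacterial S6 and one of the scarcer members, rose by log2 0.68, from 7.24 ± 1.42 to 11.5 ± 0.448 CPM.

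On the large subunit, 45 of 50 genes tested rose, and the median log2 fold change was 0.55. The 29 genes with a bacterial counterpart gave 26 higher and a median of 0.56, and the 21 tested of the mitochondrial lineage gave 19 higher and a median of 0.54. Mrpl20, a counterpart of a bacterial protein that binds rRNA early in assembly, had 28.4, 25.4 and 30.7 CPM in its Control libraries against 49.9, 48.7 and 52.4 after 5-FU+Saline, 1.77-fold higher (edgeR adjusted p = 3.90e-17). Mrpl12 had 60.4, 59.1 and 59.8 CPM in the Control libraries, 112, 101 and 101 after 5-FU+Saline, and 87.3, 79.6 and 75.8 after 5-FU+FMT. The groups did not overlap, and the fold of 5-FU+Saline over Control was 1.75 (log2 0.80 ± 0.05 SE; edgeR adjusted p = 1.60e-23). Mrpl58, a peptidyl-tRNA hydrolase of the release factor family that frees stalled mitochondrial ribosomes and is also a fixed part of the large subunit, rose 1.73-fold, from 16.4 ± 2.18 to 27.9 ± 1.40 CPM.

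Other large-subunit genes rose by similar folds. Mrpl41 rose 1.76-fold, Mrpl47 1.72-fold, Mrpl27, the counterpart of a protein close to the peptidyl transferase centre, 1.69-fold, and Mrpl54 1.68-fold. Mrpl40 rose 1.67-fold, Mrpl18, which sits in the central protuberance, 1.67-fold, Mrpl2, next to the peptidyl transferase centre, 1.603-fold, Mrpl55 1.51-fold and Mrpl34 1.46-fold. Each of these 9 had all its 5-FU+Saline libraries above its Control libraries, as did 73 of the 77 genes and 33.7% of all genes tested. Most of the 9 were named by a rule that asks for separated libraries, so their separation is no added support. Mrps30 rose less, 1.23-fold, from 26.01 ± 2.02 to 32.2 ± 2.44 CPM (SD, n = 3; edgeR adjusted p = 9.04e-04).

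The 5 genes not called, named after their values were seen, are all of the large subunit. Mrpl24, the counterpart of bacterial L24, had the highest CPM of the 77 in Control and was read at 78.8, 84.6 and 83.5 CPM there, 78.6, 84.5 and 81.1 after 5-FU+Saline and 82.2, 75.8 and 79.2 after 5-FU+FMT. The groups overlapped throughout (5-FU+Saline over Control log2 -0.02 ± 0.05 SE, edgeR adjusted p = 0.790), and 26.3% of its exon bases are shared with other genes. Mrpl52 was read at 42.2 ± 1.98 CPM in Control, 44.2 ± 3.31 after 5-FU+Saline and 44.8 ± 3.52 after 5-FU+FMT (SD, n = 3; first difference log2 0.07 ± 0.07 SE, edgeR adjusted p = 0.370). The log2 differences of Mrpl48, Mrpl23 and Mrpl35 were 0.11, 0.13 and 0.17 (edgeR adjusted p = 0.186, 0.0861 and 0.110). A pair of these calls changed when 1 library was left out. Mrpl48 was called higher without 5-FU+Saline replicate 2 (adjusted p = 0.0453) and Mrpl23 without Control replicate 2 (0.0176), and Mrpl23 also with no filter on low counts (0.0317).

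In 5-FU+FMT, 46 of the 77 genes were lower than in 5-FU+Saline and none was higher. This is 59.7% of the genes, where 19.2% of all genes tested were lower and 17.7% higher, and where 27.1% of protein-coding genes that reached 10 CPM in a group were lower. The median log2 fold change was -0.20, against 0.01 over all genes tested, with a range from -0.44 to 0.09. The differences were small: 11 of the 46 were at least 1.25-fold. In 54 genes all 5-FU+FMT libraries lay below all 5-FU+Saline libraries, where 23.7% of all genes tested did. None was higher at an unadjusted p below 0.05, DESeq2 called 44 lower and 0 higher, and limma-voom 46 and 0. Without 5-FU+FMT replicate 2 the count was 31.

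Among called genes that reached 10 CPM in a group and had separated libraries, the 8 with the largest fall are named. They were Mrpl55, Mrpl18, Mrpl40, Mrpl2, Mrps6, Mrpl12, Mrpl20 and Mrpl54, and their separation is no added support. Mrpl55, a protein of the mitochondrial lineage, had 13.9, 14.2 and 10.5 CPM in its Control libraries, 18.7, 18.7 and 19.98 after 5-FU+Saline, and 15.4, 12.9 and 14.1 after 5-FU+FMT. Its 5-FU+FMT libraries overlapped Control and lay below 5-FU+Saline, 1.35-fold lower (log2 -0.44 ± 0.11 SE, edgeR adjusted p = 7.49e-04). Mrpl2 was read at 70.5, 63.2 and 67.5 CPM after 5-FU+Saline and 54.0, 49.6 and 49.98 after 5-FU+FMT, 1.31-fold lower (edgeR adjusted p = 8.59e-08). Mrpl12 was 1.29-fold lower (edgeR adjusted p = 3.84e-09), Mrpl18 1.32-fold, Mrpl40 1.31-fold, Mrpl20 1.28-fold and Mrpl54 1.28-fold. Mrps6 fell from 11.5 ± 0.448 to 8.77 ± 0.262 CPM, 1.31-fold (SD, n = 3; edgeR adjusted p = 0.0212), but it was not called without 5-FU+Saline replicate 2 (0.0726), 5-FU+FMT replicate 2 (0.0547) or 5-FU+FMT replicate 3 (0.0604).

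By subunit, 29 of 50 large-subunit genes and 17 of 26 small-subunit genes were lower in 5-FU+FMT than in 5-FU+Saline, with medians of -0.19 and -0.21. Genes of the large subunit with a bacterial counterpart gave 20 of 29 lower (median -0.21) and those of the mitochondrial lineage 9 of 21 (median -0.13), a contrast that was not tested. Mrps27 fell 1.25-fold (edgeR adjusted p = 8.46e-04) and Mrpl34 1.22-fold (6.38e-04). Mrps23 fell 1.16-fold (edgeR adjusted p = 6.23e-03; 0.0740 without 5-FU+Saline replicate 1). The largest riser against Control, Mrps22, was 1.20-fold lower in 5-FU+FMT than in 5-FU+Saline (edgeR adjusted p = 0.0133), and was not called without 5-FU+Saline replicate 3 (0.0736), 5-FU+FMT replicate 2 (0.0579) or 5-FU+FMT replicate 3 (0.0570). Mrpl27 at log2 -0.16, Mrps12 at -0.16 and Mrps35 at -0.11 were not called.

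Other named genes with a small fall were called or not depending on single libraries. Mrpl58 was 1.18-fold lower (edgeR adjusted p = 0.0270), and not called without 5-FU+Saline replicate 2 (0.0790) or 3 (0.0984) or 5-FU+FMT replicate 1 (0.0591) or 3 (0.114). Mrpl47 was 1.21-fold lower (edgeR adjusted p = 0.0247), and not called without 5-FU+Saline replicate 1 (0.0924) or 3 (0.0777) or 5-FU+FMT replicate 1 (0.0553) or 3 (0.187). Mrpl41 was 1.21-fold lower (edgeR adjusted p = 0.0120), and not called without 5-FU+Saline replicate 3 (0.124) or 5-FU+FMT replicate 2 (0.0647) or 3 (0.0655). Mrps24 differed by log2 -0.20 (edgeR adjusted p = 0.0260), and was not called without 5-FU+Saline replicate 2 (0.133) or 5-FU+FMT replicate 2 (0.0956) or 3 (0.0746).

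**Figure D2:**
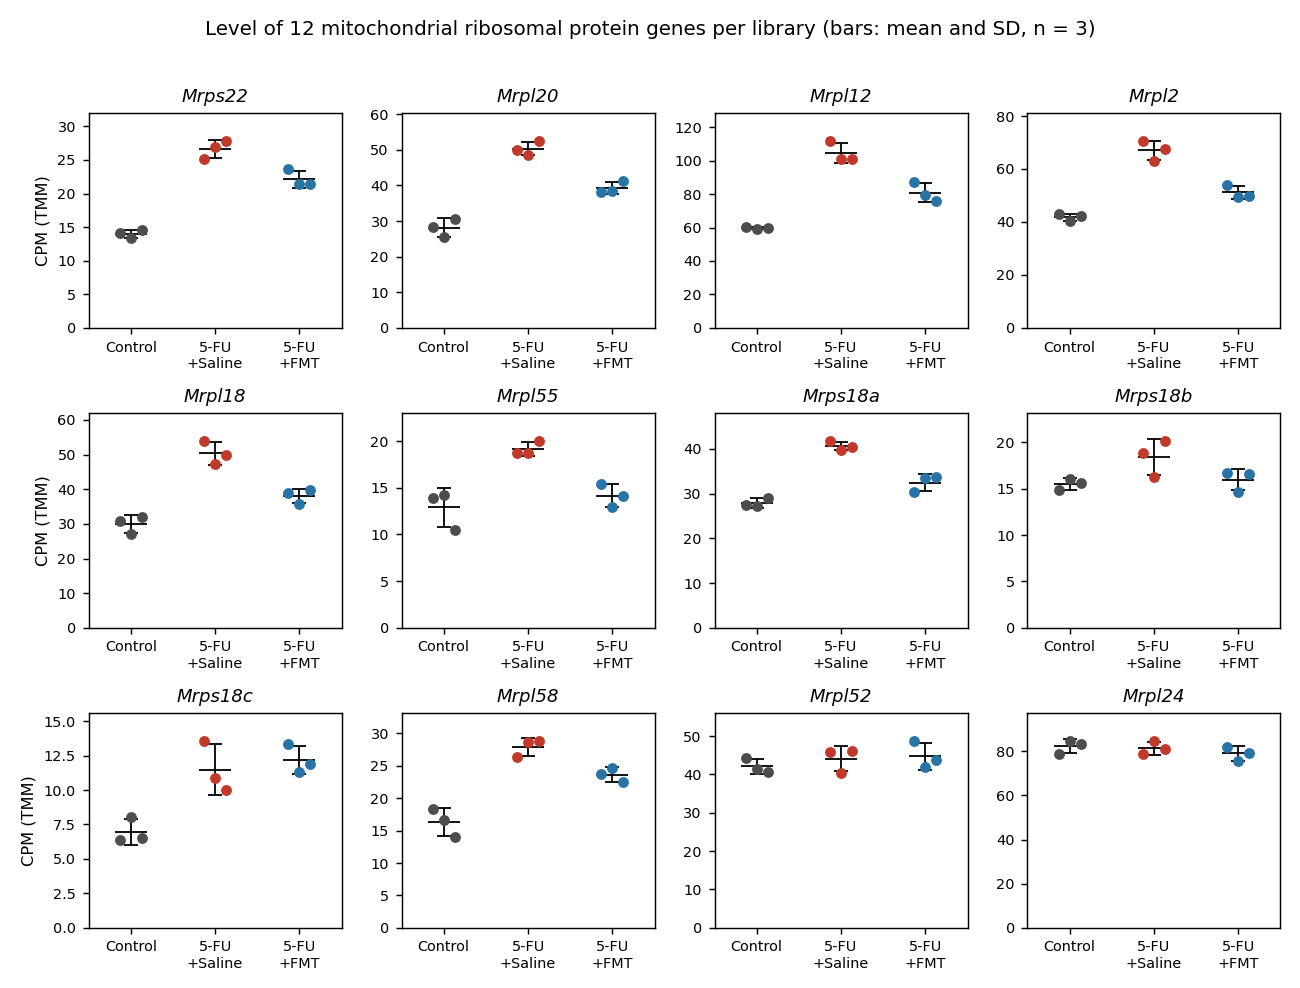
CPM of 12 genes in each library, as points, with the mean and SD of the 3 libraries of each group as bars; each vertical axis starts at 0. Mrps22, Mrpl20, Mrpl12, Mrpl2 and Mrpl18 show 3 separate groups with 5-FU+FMT between the others, 5-FU+FMT reaches Control in Mrpl55, Mrps18c overlaps between 5-FU+FMT and 5-FU+Saline, and Mrpl52 and Mrpl24 overlap across all groups.

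Against Control, 63 of the 77 genes were higher in 5-FU+FMT and none was lower. This is 81.8% of the genes, where 25.0% of all genes tested were higher and 21.6% lower, and where 34.4% of protein-coding genes that reached 10 CPM in a group were higher. The median log2 fold change was 0.32, against -0.01 over all genes tested, with a range from -0.06 to 0.82. In 64 genes the 5-FU+FMT libraries all lay above the Control libraries, where 27.1% of all genes tested did. Of the 63, 39 rose at least 1.25-fold and 3 at least 1.5-fold. DESeq2 called 58 higher and 0 lower and limma-voom 63 and 0. No gene was lower at an unadjusted p below 0.05, but under upper-quartile scaling Mrpl24 was called lower (log2 -0.12, adjusted p = 0.04). This comparison uses the same 5-FU+FMT libraries as the one before and the same Control libraries as the first, so the 3 sets of values are not independent.

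The 3 genes past 1.5-fold were Mrps18c, Mrps22 and Mrpl27, at 1.77-fold, 1.57-fold and 1.51-fold (edgeR adjusted p = 1.27e-06, 3.96e-08 and 1.05e-07). Mrpl58 stood 1.46-fold, Mrpl41 1.45-fold, Mrps12 1.43-fold, Mrpl47 1.42-fold and Mrps23 1.42-fold above Control. Mrpl20 stood 1.38-fold above Control, Mrpl12 1.35-fold, Mrps27 1.35-fold, Mrpl54 1.32-fold, Mrpl18 1.26-fold and Mrpl2 1.22-fold. Mrpl40 was 1.28-fold higher (edgeR adjusted p = 1.17e-03; 0.105 without Control replicate 3) and Mrpl34 1.20-fold (2.65e-03; 0.101 without 5-FU+FMT replicate 1). Mrps35 was higher by log2 0.20 (edgeR adjusted p = 0.0356), and not called without Control replicate 1 (0.0565), 2 (0.0592) or 3 (0.0900) or 5-FU+FMT replicate 2 (0.204), nor by DESeq2 (0.0719), with the stricter filter (0.0557) or under upper-quartile scaling (0.172). Mrpl55 at log2 0.16 and Mrps24 at 0.01 were not called. Neither was Mrps6 at 0.30 (edgeR adjusted p = 0.0975; 0.0199 without Control replicate 1), nor Mrps30 at 0.18 (0.0636; 0.0337 without Control replicate 1 and 0.0348 with no filter). The large subunit gave 42 of 50 higher with a median of 0.33 and the small subunit 21 of 26 with a median of 0.29.

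Mammals have 3 genes for the S18 family of proteins. In the split by origin above, only Mrps18c is counted as a bacterial counterpart. Mrps18a and Mrps18b are counted with the genes of the mitochondrial lineage, although they belong to the same family. Mrps18c, whose product is a small-subunit counterpart of bacterial S18, was read at 6.34, 8.07 and 6.50 CPM in Control, 13.6, 10.9 and 10.02 after 5-FU+Saline and 13.3, 11.3 and 11.9 after 5-FU+FMT. Both 5-FU groups lay above Control and overlapped each other, and the difference between them was log2 0.09 ± 0.13 SE (edgeR adjusted p = 0.618). It rests on 85 to 207 read pairs per library, and 23.2% of its exon bases are shared with other genes. Mrps18a, of the large subunit, was read at 27.9 ± 1.08 CPM in Control, 40.7 ± 0.960 after 5-FU+Saline and 32.5 ± 1.90 after 5-FU+FMT (SD, n = 3). It was 1.45-fold higher in 5-FU+Saline than in Control and 1.25-fold lower in 5-FU+FMT than in 5-FU+Saline (edgeR adjusted p = 1.69e-09 and 1.81e-04). Its excess in 5-FU+FMT over Control, 1.16-fold (0.0184), was not called without Control replicate 1 (0.0539) or 2 (0.0516) or 5-FU+FMT replicate 2 (0.0685) or 3 (0.0675), nor under upper-quartile scaling (0.109). Mrps18b, another small-subunit protein, was read at 15.5 ± 0.618, 18.4 ± 1.96 and 16.0 ± 1.13 CPM in the same order, and 30.5% of its exon bases are shared with other genes. It was called 1.19-fold higher in 5-FU+Saline than in Control (edgeR adjusted p = 0.0295), but not without Control replicate 1 (0.0894) or 3 (0.0530) or 5-FU+Saline replicate 1 (0.0688) or 3 (0.183), nor with the stricter filter (0.0662) or under upper-quartile scaling (0.135). Its other differences were log2 -0.21 (edgeR adjusted p = 0.109; 0.0412 without 5-FU+Saline replicate 2) and 0.04 (0.769). Whether the 3 genes differ from each other in response was not tested.

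Mrps36, which is no fixed part of the mitochondrial ribosome, was read at 14.5 ± 1.02 CPM in Control, 17.9 ± 0.535 after 5-FU+Saline and 15.7 ± 2.47 after 5-FU+FMT (SD, n = 3). It rose 1.23-fold after 5-FU and saline (edgeR adjusted p = 0.0134), a call lost without Control replicate 1 (0.0561) and under upper-quartile scaling (0.0681). Its fall in 5-FU+FMT, log2 -0.18, was not called (0.193; 0.0335 without 5-FU+FMT replicate 1).

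Summed over genes, the large subunit stood at 1592 ± 12.6 CPM in Control, 2256 ± 20.1 after 5-FU+Saline and 1963 ± 42.6 after 5-FU+FMT, and the small subunit at 727 ± 1.99, 1012 ± 10.3 and 884 ± 14.2 CPM (SD, n = 3). The ratio of the sums was 2.19 ± 0.0216, 2.23 ± 0.0198 and 2.22 ± 0.0188 in that order, with ranges of 2.17 to 2.21, 2.21 to 2.25 and 2.1998 to 2.2367. Before any scaling, the 78 genes took 0.228% to 0.230% of assigned read pairs in Control, 0.328% to 0.331% after 5-FU+Saline and 0.285% to 0.295% after 5-FU+FMT, and these ranges do not overlap.

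The genes for the ribosome of the cytosol moved in both directions, but more of them rose than fell after 5-FU+Saline. Of 81 fitted, 42 stood above and 14 below Control, with a median log2 fold change of 0.06. The mitochondrial set gave 72 and 0 of 77 and 0.54. Among all 16595 genes, 32.8% stood above Control there and 32.7% below. After FMT, against 5-FU+Saline, 6 of the 81 were higher and 30 lower (median -0.04), beside 17.7% and 19.2% of all genes. Against Control, 28 were higher and 9 lower (median 0.03), beside 25.0% and 21.6%. In each comparison the larger cytosolic count lay on the same side as that of the mitochondrial set, with a smaller median. The cytosolic set took 5.80% to 5.96% of assigned read pairs in Control, 6.41% to 6.62% after 5-FU+Saline and 6.12% to 6.50% after 5-FU+FMT. The Control range lay below the others, and those of the 5-FU groups overlapped. The difference between the 2 sets of genes is a description and was not tested.

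**Figure D3:**
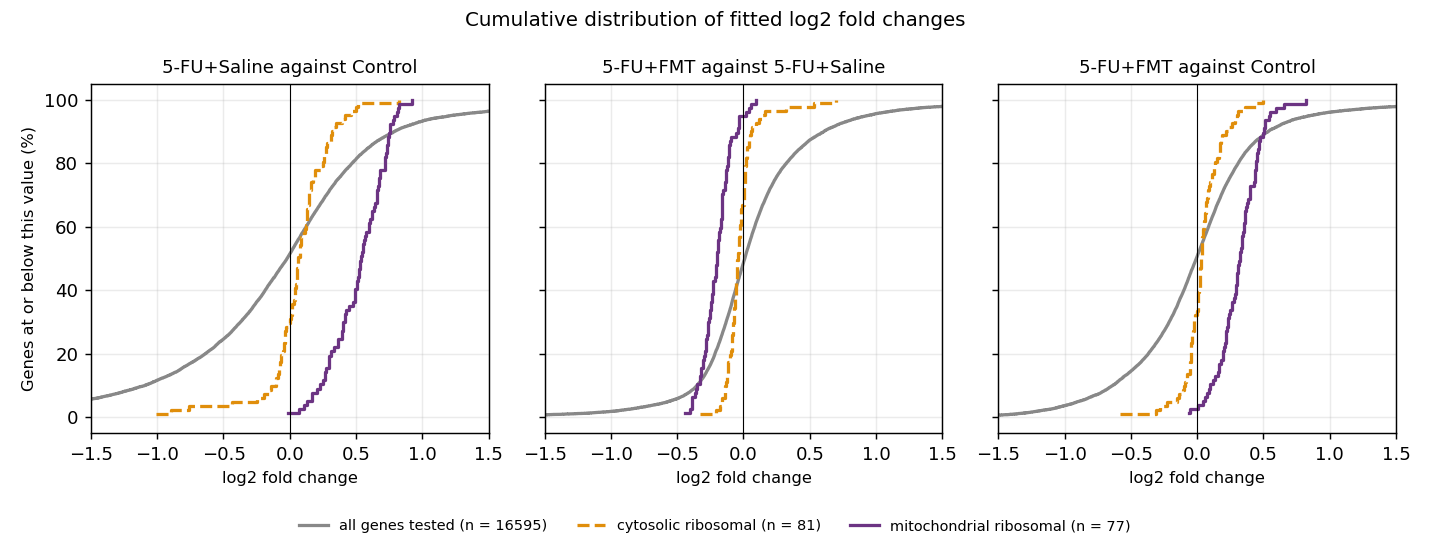
Cumulative share of genes by fitted log2 fold change in the 3 comparisons, for all 16595 genes tested, 81 cytosolic and 77 mitochondrial ribosomal protein genes. The mitochondrial curve is shifted to the right in the left and right panels (medians 0.54 and 0.32) and to the left in the middle panel (-0.20), while the cytosolic curve crosses 50% at 0.06, -0.04 and 0.03.

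Proteins of the mitochondrial ribosome also include 5 with other names, Dap3, Ptcd3, Aurkaip1, Chchd1 and Gadd45gip1. All 5 were higher in 5-FU+Saline than in Control (median log2 0.39), 3 were lower in 5-FU+FMT than in 5-FU+Saline (median -0.16) and 4 were higher in 5-FU+FMT than in Control (median 0.19). Chchd1, of the small subunit, was read at 25.1 ± 1.20, 45.2 ± 1.804 and 36.1 ± 2.83 CPM (SD, n = 3) and Aurkaip1 at means of 46.6, 61.3 and 53.5 CPM. Upper-quartile scaling left 2 of the 4 higher in 5-FU+FMT than in Control. Of 2 mitochondrial rRNAs, mt-Rnr2, the large-subunit rRNA, was read at 129 ± 2.12, 218 ± 2.199 and 167 ± 3.48 CPM and differed in all 3 comparisons (edgeR adjusted p = 1.57e-31, 6.47e-16 and 2.64e-14). The small-subunit rRNA, mt-Rnr1, was read at means of 65.2, 72.7 and 73.7 CPM. It was called 1.11-fold higher in 5-FU+Saline than in Control (edgeR adjusted p = 0.0155), but not without Control replicate 2 (0.0876) or 5-FU+Saline replicate 1 (0.185), with the stricter filter (0.0694) or under upper-quartile scaling (0.238). Its level above Control in 5-FU+FMT, 1.13-fold (edgeR adjusted p = 9.75e-03), was not called without Control replicate 2 (0.0645) or 5-FU+FMT replicate 1 (0.0771), or under upper-quartile scaling (0.116). The 2 rRNAs together summed to 188 to 198 CPM in Control, 286 to 295 after 5-FU+Saline and 236 to 245 after 5-FU+FMT. The mitochondrially encoded mRNAs summed to at least 11041 CPM in every library. The part of library preparation in the rRNA levels and their differences was not tested.

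The messages that this ribosome translates are encoded by mitochondrial DNA. The 13 mitochondrially encoded mRNAs summed to 11041 to 11360 CPM in Control, 11625 to 11770 after 5-FU+Saline and 11169 to 11481 after 5-FU+FMT. Of 12 fitted, 6 stood above and 1 below Control after 5-FU+Saline (median log2 0.06), and 0 higher and 5 lower in 5-FU+FMT than in 5-FU+Saline (median -0.07). DESeq2 also called 0 higher, and limma-voom, the stricter filter and the replicate block each 1. mt-Nd1, a complex I subunit, rose 1.33-fold, from 1065 to 1418 CPM, and was 1202 CPM in 5-FU+FMT. mt-Nd2, another complex I subunit, went from 604 to 795 and 692 CPM. mt-Co1, the catalytic subunit of cytochrome c oxidase, was 1.11-fold lower in 5-FU+Saline than in Control, at 4983 against 5512 CPM (edgeR adjusted p = 1.53e-10), and 5108 CPM in 5-FU+FMT. Against Control, 4 were higher and 3 lower after 5-FU+FMT (median 0.01), with 1 lower without 5-FU+FMT replicate 2 and 5 under upper-quartile scaling. Among the called genes, mt-Nd5 and mt-Nd6 led the rises there, at 1.16-fold and 1.24-fold (edgeR adjusted p = 6.01e-13 and 1.23e-13), and the scarce mt-Nd3 was 1.46-fold lower (3.43e-03; 0.0598 without 5-FU+FMT replicate 2).

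The counts for factors that build the mitochondrial ribosome are set beside the shares of all genes tested. Of 21 assembly and rRNA modification factors, 9 were higher and 4 lower after 5-FU+Saline than in Control, with a median log2 fold change of 0.14. Upper-quartile scaling left 5 higher, and dropping the filter left 2 lower. In that comparison 32.8% of all genes tested were higher and 32.7% lower. Of protein-coding genes that reached 10 CPM in a group, 43.0% were higher, and the 9 of 21 factors were close to that share. In 5-FU+FMT, 17.7% of all genes tested were higher and 19.2% lower than in 5-FU+Saline, and 25.0% and 21.6% than in Control. The counts of the other gene lists stand beside the same shares. Rcc1l and Fastkd2, which act on the large-subunit rRNA, rose 1.46-fold and 1.39-fold (edgeR adjusted p = 1.52e-09 and 1.46e-07). Mrm1, a methyltransferase of the same rRNA, was 1.51-fold lower, at 43.4 ± 3.58 against 65.6 ± 2.55 CPM (SD, n = 3; edgeR adjusted p = 5.84e-14), and the helicase Dhx30 differed by log2 -0.14 (9.31e-04). Between the 5-FU groups, 1 was higher and 4 lower in 5-FU+FMT, and without 5-FU+Saline replicate 2 this became 0 and 2, with Mrm1 (1.16-fold higher, edgeR adjusted p = 5.59e-03) at 0.0993. The stricter filter gave 2 higher. Rcc1l was 1.20-fold and Fastkd2 1.20-fold lower there. Against Control, 3 were higher and 3 lower after 5-FU+FMT, which became 5 higher without Control replicate 1 and 1 lower without 5-FU+FMT replicate 1, without 5-FU+FMT replicate 2 or without the filter. Eral1, a GTPase that binds the small-subunit rRNA, was 1.23-fold higher there (edgeR adjusted p = 1.56e-03).

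Of 15 mitochondrial translation factors, 8 were higher and 1 lower after 5-FU+Saline than in Control (median log2 0.28). Tufm, the elongation factor that brings tRNAs to the ribosome, was read at 66.4 ± 2.48 CPM in Control, 118 ± 2.36 after 5-FU+Saline and 92.2 ± 5.97 after 5-FU+FMT (SD, n = 3). It rose 1.78-fold and was 1.28-fold lower in 5-FU+FMT (edgeR adjusted p = 4.10e-26 and 7.19e-10). Lrpprc, which stabilises mitochondrial mRNAs, rose 1.58-fold. Guf1, the counterpart of the bacterial back-translocase LepA, was 1.38-fold lower in 5-FU+Saline than in Control (edgeR adjusted p = 8.64e-14). The count of lower factors was 2 without Control replicate 3, without 5-FU+Saline replicate 3 or with the stricter filter, and 4 under upper-quartile scaling. Between the 5-FU groups, 4 were lower in 5-FU+FMT, Gfm1 among them at 1.20-fold (edgeR adjusted p = 7.97e-05), and 2 were higher, Guf1 at 1.20-fold (9.62e-06) and Gfm2. Gfm2 (edgeR adjusted p = 0.0374) was not called without any 1 of 5-FU+Saline replicates 1, 2 or 3 (0.0659, 0.0722 and 0.112) or 5-FU+FMT replicates 2 or 3 (0.283 and 0.0536), nor by DESeq2 (0.103), with RLE factors (0.0598) or with no filter (0.0622). A total of 9 were higher and 1 lower in 5-FU+FMT than in Control (median 0.28).

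Of 17 mitochondrial aminoacyl-tRNA synthetases, which charge tRNAs for this ribosome, 10 were higher and 3 lower after 5-FU+Saline than in Control (median log2 0.34). Sars2, the seryl-tRNA synthetase, rose 1.58-fold, from 24.9 ± 1.42 to 39.0 ± 0.867 CPM (SD, n = 3; edgeR adjusted p = 5.62e-12). Lars2 stood far apart from all mitochondrial ribosomal genes, at 1410 ± 68.6 CPM in Control, 157 ± 17.3 after 5-FU+Saline and 580 ± 54.6 after 5-FU+FMT, 9.03-fold lower in 5-FU+Saline than in Control (edgeR adjusted p = 1.32e-68). Cars2 was 1.36-fold lower (1.32e-09). Lars2 made up most of the level of the list, whose 17 genes summed to 1970 to 2092 CPM in Control. The part of library preparation in the level of Lars2 and its differences was not tested. Relative to 5-FU+Saline, 2 were higher and 6 lower in 5-FU+FMT. Lars2 was 3.72-fold higher there, and Iars2 1.097-fold lower (edgeR adjusted p = 5.45e-03). Cars2 was called higher (edgeR adjusted p = 0.0205), but not without 5-FU+Saline replicate 1 (0.103) or 3 (0.113) or 5-FU+FMT replicate 1 (0.128) or 2 (0.0955), nor by DESeq2 (0.0745). Relative to Control, 9 were higher and 3 lower in 5-FU+FMT.

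Of 9 nuclear genes for the copying and reading of mitochondrial DNA, 4 were higher and 1 lower after 5-FU+Saline than in Control (median log2 0.16). Over all genes tested, 32.8% were higher and 32.7% lower. The number higher on the list was 2 without Control replicate 3, with the stricter filter and under upper-quartile scaling, the last with 2 lower. Tfam, which packages and transcribes mitochondrial DNA, rose 1.35-fold (edgeR adjusted p = 1.35e-09), and Polrmt, its RNA polymerase, 1.26-fold (1.10e-06). Polg2, the accessory subunit of its DNA polymerase, was 2.15-fold lower, at 18.7 ± 0.747 against 40.2 ± 2.38 CPM (SD, n = 3; edgeR adjusted p = 2.05e-20), and was the single gene higher in 5-FU+FMT than in 5-FU+Saline, 1.47-fold (8.10e-08). No gene of the list was lower there with all 9 libraries, and 1 was without 5-FU+Saline replicate 3. Against Control, 2 were higher and 1 lower in 5-FU+FMT, with 4 higher when no filter was used.

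Of 9 regulators of mitochondrial biogenesis, 4 were higher and 2 lower after 5-FU+Saline than in Control (median log2 0.17). Over all genes tested, 32.8% were higher and 32.7% lower. Gabpa and Nrf1, whose products read the ETS and NRF1 cores printed above, rose 1.34-fold and 1.34-fold (edgeR adjusted p = 4.24e-12 and 6.58e-10). Myc, which acts through E-boxes, was 1.30-fold lower, at 141 ± 5.53 against 184 ± 7.45 CPM (SD, n = 3; edgeR adjusted p = 4.09e-14), and 1.16-fold higher in 5-FU+FMT than in 5-FU+Saline (5.90e-06). The scarce coactivator Ppargc1a was called 1.70-fold lower in 5-FU+Saline than in Control (8.98e-03), but not without Control replicate 3 (0.155) or 5-FU+Saline replicate 3 (0.122), and did not pass the stricter filter. Relative to 5-FU+Saline, 1 was higher and 3 lower in 5-FU+FMT, and 1 was lower without 5-FU+FMT replicate 1. Of those, Yy1 was 1.07-fold lower (edgeR adjusted p = 7.96e-03; 0.143 without 5-FU+FMT replicate 1). Gabpb1 was 1.103-fold lower (edgeR adjusted p = 9.99e-03; 0.0553 without 5-FU+FMT replicate 1 and 0.0532 without 5-FU+Saline replicate 3). Relative to Control, 3 were higher and 1 lower in 5-FU+FMT.

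A further list held 12 other nuclear-encoded mitochondrial proteins, namely import channels, chaperones, porins and citrate synthase. All 12 were higher in 5-FU+Saline than in Control (median log2 0.59), 11 were lower in 5-FU+FMT than in 5-FU+Saline (median -0.21), and 12 were higher in 5-FU+FMT than in Control (median 0.36). Hspa9, the matrix chaperone that pulls in imported proteins, was read at 356 ± 0.612, 555 ± 4.90 and 467 ± 10.4 CPM and Cs, citrate synthase, at 160 ± 5.38, 250 ± 6.45 and 207 ± 5.08 CPM (SD, n = 3). Vdac1, a porin of the outer membrane, had means of 161, 247 and 212 CPM.

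**Figure D4:**
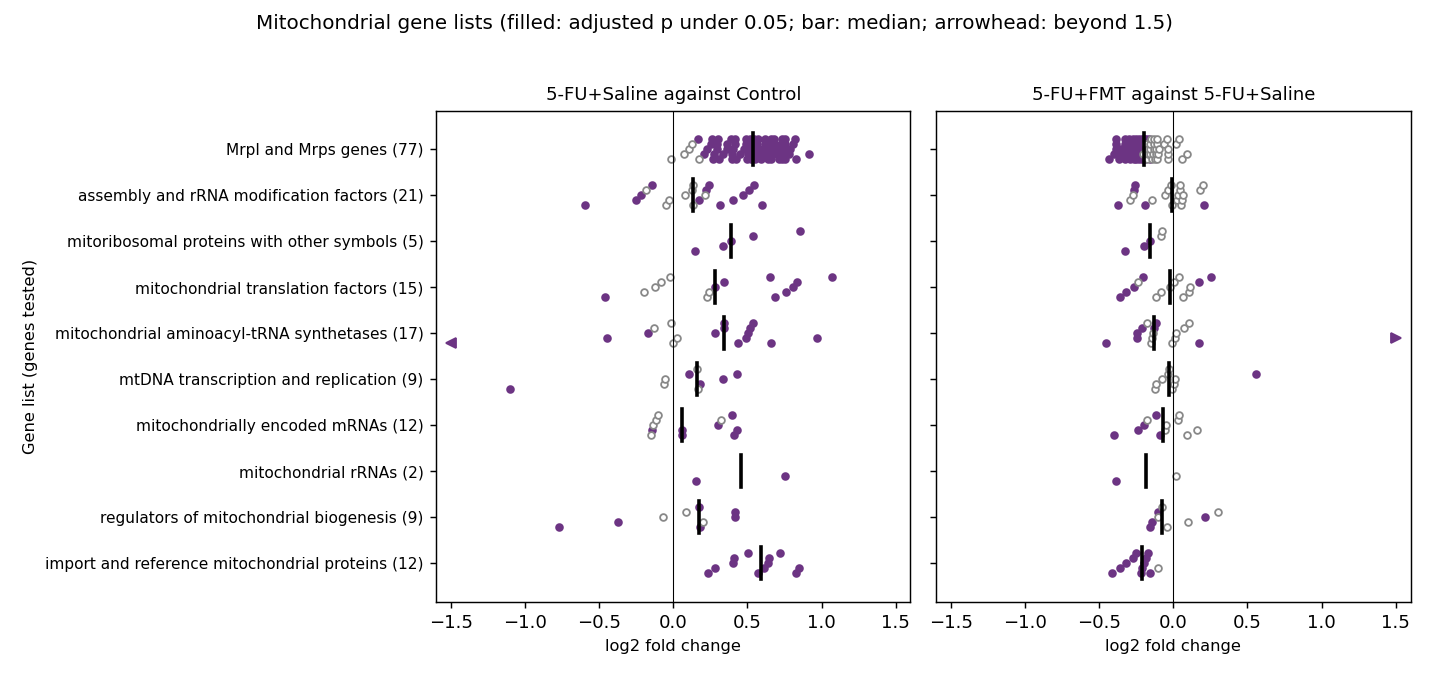
Fitted log2 fold change of each gene of the mitochondrial lists in 5-FU+Saline against Control and in 5-FU+FMT against 5-FU+Saline; filled points passed the test, bars are medians, and the arrowheads beyond the axes are Lars2 (-3.18 and 1.90). The 77 Mrpl and Mrps genes and the 12 import and reference proteins lie on one side of 0 in both panels apart from single genes not called, while the assembly, synthetase and regulator lists spread over both sides.

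Members with and without each promoter core are set side by side here. In 5-FU+Saline against Control, the median log2 fold change was 0.47 for 16 genes with the NRF1 core and 0.58 for 52 genes without it, 0.56 for 25 with the ETS core and 0.53 for 43 without, 0.56 for 8 with the YY1 core and 0.55 for 60 without, and 0.68 for 5 with the E-box and 0.54 for 63 without. In 5-FU+FMT against 5-FU+Saline, the medians with and without were -0.17 and -0.22 for the NRF1 core, -0.21 and -0.20 for the ETS core, -0.26 and -0.20 for the YY1 core and -0.23 and -0.20 for the E-box. In 5-FU+FMT against Control they were 0.30 and 0.33, 0.37 and 0.30, 0.28 and 0.32, and 0.34 and 0.32 in that order. These are descriptions with no test.

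The size of the difference varied with the length of the gene. In 5-FU+Saline against Control, the 26 shortest genes (607 to 1667 exon bases) had a median log2 fold change of 0.66, the 25 of middle length 0.49 and the 26 longest (3332 to 8631 bases) 0.46. Over protein-coding genes that reached 10 CPM in a group, from which the members were not removed, the same length ranges gave medians of 0.30, 0.17 and 0.01. These are below the members' median in each class, a description that was not tested. The counts of members called higher were 25 of 26, 24 of 25 and 23 of 26. In 5-FU+FMT against 5-FU+Saline the members' medians were -0.24, -0.20 and -0.18, beside -0.14, -0.07 and -0.00 over the protein-coding genes. Across the 77 genes, Spearman's rho of length and log2 fold change was -0.35 in 5-FU+Saline against Control and 0.29 in 5-FU+FMT against 5-FU+Saline, and over the 9891 protein-coding genes -0.18 and 0.19. All points come from the same libraries, and genes are not independent replicates. The part of RNA quality or library preparation in this relation was not tested.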

How the data were processed

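Counts per gene were deposited by the authors for each of the 9 libraries. Per the labels' protocols, Trizol was used for total RNA, and NEBNext Ultra II libraries were sequenced as read pairs on a NovaSeq. The tools named in the submitters' processing notes are Trim Galore 0.6.5, HISAT2 2.2.1 and SAMtools with the mm10 build, besides the counter featureCounts 2.0.1. Per the file headers, read pairs were counted over exons without strand and with no option to count reads that overlap several genes, so antisense neighbours cannot be told apart and such reads are lost. Of the 78 genes, 32 share at least 1 exon base with another gene and 17 share at least 10%. The 5 Mrpl and Mrps pseudogenes in the tables had 0 to 10 counts per library.

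Gene symbols came from a table of gene identifiers, which matched 55141 of 56262 rows. Genes were filtered with filterByExpr, which left 16595, scaled with TMM factors and fitted with edgeR 4.0.16 (quasi-likelihood test) in R 4.3.3, all 3 groups together. Genes with a Benjamini-Hochberg adjusted p below 0.05 over all genes tested were called. The common biological coefficient of variation was 3.74%. The labels do not say that the 3 libraries of a group came from separate mice, and p-values then measure only the spread between these libraries, which may be technical. Alternatives were RLE and upper-quartile factors, DESeq2 1.42.0, limma-voom (limma 3.58.1), no filter, a stricter filter (5 CPM in 3 libraries), only the 2 groups compared, the replicate number as a block, and each library left out.

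The genes and lists were chosen with earlier results of these data known. Genes are named by this rule: in each comparison and direction, the 8 called genes of largest fold that reach 10 CPM in a group and whose libraries do not overlap, and every called gene of a minority direction of 8 or fewer. Further named genes are a fixed set of 10 (Mrpl12, Mrpl58, Mrps18a, Mrps18b, Mrps18c, Mrps30, Mrps36, Mrps6, Mrpl47 and Mrps24), the 3 highest and 3 lowest per kilobase in Control, those that failed the filter, and up to 2 called genes per list, comparison and direction. A gene of the synthetase list that this rule names is not reported here. Promoters are from RefSeq (GRCm38.p6), and any part that is exonic in GENCODE was left out of the printed stretches.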

Additional observations from a re-analysis of the deposited data

How the results depend on the processing

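No gene reversed direction among calls. Members higher in 5-FU+Saline than in Control numbered 66 to 73 over the alternatives and 69 to 72 with 1 library left out. Members lower in 5-FU+FMT than in 5-FU+Saline numbered 42 to 48 over the alternatives and 31 to 47 with 1 library left out, the lowest without 5-FU+FMT replicate 2. Members higher in 5-FU+FMT than in Control numbered 55 to 64 and 58 to 63. Upper-quartile scaling, which moved the median of all genes to -0.10, 0.02 and -0.07 in the 3 comparisons, gave a median of 0.46 for members in 5-FU+Saline against Control and 1 member lower in 5-FU+FMT than in Control. It put the summed large subunit at 1646 CPM in Control and 2210 in 5-FU+Saline, and the small subunit at 751 and 992. Under it, 4661 genes were higher and 6210 lower in 5-FU+Saline than in Control (5443 and 5429 under TMM), and 3315 and 4559 in 5-FU+FMT than in Control (4151 and 3584). The replicate numbers showed no pairing of the libraries. Between same-numbered libraries of different groups, deviations of genes from their group means correlated at -0.0173 to 0.0194. Between libraries of different groups and numbers, they correlated at -0.0296 to 0.0281. With the replicate block the counts were 72, 46 and 63, the counts without it. Only the members sharing under 10% of their exon bases, a choice made after seeing the data, gave 57, 37 and 52 of 61. Depth limits the scarcest genes: Mrps6 and Mrps18c rest on 79 to 219 read pairs per library.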
